A study of Mus musculus with 12 samples.

Results

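Astrocyte genes were followed as 34 symbols among the 33864 loci of a mouse white matter RNA-seq table. The set holds 22 identity members, which mark astrocytes at rest through their transport, metabolism and surface proteins, and 12 reactive members, which astrocytes are known to raise after injury or inflammation. Each symbol was read from the locus that carries it, and from the locus with the highest mean over the 12 libraries where several carry it, which applied to Cp, Glul and Hepacam. The rule uses no difference between groups, and all 34 were found.

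Subcortical white matter came from 12 mice, 1 library per mouse, in 4 groups of 3. Sox10-tTA;TRE-dnEGFR mice, called dnEGFR mutants here, and TRE-dnEGFR littermates, called dnEGFR controls, were kept on doxycycline between postnatal days 21 and 35, the day of sampling. Sox10-tTA;TRE-ErbB2V664E mice, called ErbB2V664E mutants, and TRE-ErbB2V664E littermates, called ErbB2V664E controls, were kept on it between days 21 and 30 and taken at day 30. dnEGFR and ErbB2V664E are, by their names, a dominant negative epidermal growth factor receptor and an activated ErbB2 receptor, and the series title frames the study around ErbB receptors inhibited or activated in oligodendroglia. Controls carry the transgene and doxycycline but no transactivator, and no group carries Sox10-tTA alone. The labels give neither the strain nor whether doxycycline turned the transgene on or off. The transactivator is driven by Sox10, a gene of the oligodendrocyte lineage that most astrocytes do not express.

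Astrocytes clear glutamate and potassium from around neurons and axons, make glutamine, carry water and ions to blood vessels through their endfeet, and couple to oligodendrocytes through gap junctions. White matter holds mostly fibrous astrocytes, which are rich in the intermediate filament protein GFAP even in healthy tissue. In reactive astrocytes cytokines of the interleukin-6 family act through the shared receptor gp130 and the transcription factor STAT3, and filament genes, protease inhibitors and iron-binding proteins are raised.

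The letters before the transcription starts were read because STAT3 is itself a reactive member and the filament gene Gfap and the secreted inhibitor gene Serpina3n, shown first, had differences of opposite sign in one line. RefSeq start windows (GRCm38.p6, 250 bases before to 50 after a start) were at hand for 30 of the 34 members, and Aqp4, Atp1b2, Clu and Sox9 had no entry. The 250 bases before each start are printed 5′ to 3′ on the gene's strand.
Gfap, chr11:102897201-102897450, minus strand: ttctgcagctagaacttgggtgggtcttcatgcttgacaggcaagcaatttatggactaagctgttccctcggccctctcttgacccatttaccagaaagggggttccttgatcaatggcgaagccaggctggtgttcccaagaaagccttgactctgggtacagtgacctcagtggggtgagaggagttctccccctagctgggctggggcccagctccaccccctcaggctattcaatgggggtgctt
Serpina3n, chr12:104406458-104406707, plus strand: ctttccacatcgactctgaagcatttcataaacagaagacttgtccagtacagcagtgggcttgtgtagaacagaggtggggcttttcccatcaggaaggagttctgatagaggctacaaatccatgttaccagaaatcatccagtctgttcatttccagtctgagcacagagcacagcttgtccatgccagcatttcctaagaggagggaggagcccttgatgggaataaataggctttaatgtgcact

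The STAT motif TTCNNNGAA, searched on both strands, was found in 6 of the 37 windows of these 30 members (16.2%) and in 2726 of all 32851 windows (8.3%). Each match is shown with up to 15 bases on either side, and capitals mark the motif. These are matches of letters and not binding sites, and no match in Serpina3n says only that the letters are not in its window.
Steap4, chr5:7960341-7960379, plus strand: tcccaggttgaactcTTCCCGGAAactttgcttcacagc
Acsbg1, chr9:54661888-54661926, minus strand: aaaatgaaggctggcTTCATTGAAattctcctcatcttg
Aldoc, chr11:78324059-78324097, plus strand: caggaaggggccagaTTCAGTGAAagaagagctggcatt
Aldoc, chr11:78324100-78324138, plus strand: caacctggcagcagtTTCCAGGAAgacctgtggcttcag
Gfap, chr11:102897194-102897217, minus strand: attcaatgggggtgcTTCCAGGAA
Ntsr2, chr12:16653393-16653431, plus strand: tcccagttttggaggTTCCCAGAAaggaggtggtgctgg
Slc1a3, chr15:8710880-8710918, minus strand: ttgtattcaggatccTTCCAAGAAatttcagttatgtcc
The Gfap match lies across the start, from base -2 to base 7 counted from the first transcribed base as 1. The AP-1 motif TGANTCA was present in 3 of the 37 member windows (8.11%), those of Cp, F3 and Osmr, beside 7.81% of all windows. The NFI motif, which is TTGGC and GCCAA with any 5 bases between them, was in 0 members and in 12 windows of the whole table.

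Values are FPKM, in which fragments are divided by transcript length and by sequencing depth, so that levels can be set side by side between genes. Total FPKM ran from 117363 to 134410 per library, and a step in the low values gave an estimated depth at which 1 FPKM in a transcript of 2 kb stands for 33.2 to 49.5 fragments. One locus, Gm28661, took 4.29% to 4.98% of the total in the ErbB2V664E line and was at or near 0 in the dnEGFR line. Differences are of log2(FPKM + 1), tested with limma over all 12 libraries, and a call is an adjusted p under 0.05 over the 13803 loci that reached 1 FPKM in at least 3 libraries. Astrocyte RNA was present throughout: 29 of the 34 members passed that filter, including all 22 identity members, which reached 1 FPKM in every library. Their summed level was 1034 to 1208 FPKM in ErbB2V664E controls, 964 to 1065 in ErbB2V664E mutants, 957 to 1034 in dnEGFR controls and 920 to 1013 in dnEGFR mutants. The sum follows the genes with the highest values. Glul, also known from oligodendrocytes, had a mean of 430 FPKM, and Slc1a2 was at 229 FPKM in the library with the highest sum. In whole tissue, fewer astrocytes and less RNA per astrocyte cannot be told apart.

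No member passed the test in either line, in a table where 0.275% of loci did in ErbB2V664E mutants and 0.0942% in dnEGFR mutants. In the ErbB2V664E line the reactive members did not share a direction: Serpina3n and Cp lay higher in all mutants, while Gfap and Vim had lower means. Of the 22 identity members, 14 had negative differences, with a median log2 difference of -0.17, and of the 7 reactive members tested 5 had positive ones, with a median of 0.11. Over all loci tested 49% were negative and the median was 0.00. The dnEGFR line gave 14 negative identity members with a median of -0.05 and 6 positive reactive members of 7 with a median of 0.04, where 48.1% of all loci were negative and the median was 0.01. The 4 calls among the 29 members tested were all between the 2 control groups, with higher Clu, Stat3, Ntsr2 and Gfap in ErbB2V664E controls. Between those groups 20% of all loci tested were called, 10.9% of them all as higher in ErbB2V664E controls.

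Serpina3n, which encodes a secreted serine protease inhibitor raised in reactive astrocytes and also known from oligodendrocytes under stress, had the smallest p of all members in the ErbB2V664E line. Its level was 5.89, 9.56 and 8.93 FPKM in the 3 ErbB2V664E mutants and 4.32, 1.38 and 4.14 FPKM in their controls. Every mutant lay above every control, and the mean was 2.48 times the control mean, 8.13 ± 1.96 against 3.28 ± 1.65 FPKM (SD, n = 3). The log2 difference was 1.16 (SE 0.30, adjusted p = 0.158, limma), so it was not called among 13803 loci. dnEGFR mutants had 1.72, 2.23 and 2.32 FPKM and dnEGFR controls 2.56, 1.46 and 2.08 FPKM, which overlapped, with a difference of 0.04 and a 95% interval from -0.62 to 0.70. Serpina3n sits in a cluster of closely related inhibitor genes, and no label says how the authors' counting shared fragments among them.

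Cp encodes ceruloplasmin, a copper-carrying ferroxidase that astrocytes hold on their surface and secrete. It stood at 1.32, 1.58 and 1.94 FPKM in ErbB2V664E mutants against 1.15, 1.11 and 1.01 FPKM in controls, with no overlap. Its log2 difference was 0.32 (SE 0.11, adjusted p = 0.289). With the loci that carry the symbol summed, it was 0.21 (adjusted p = 0.761, limma), and the difference of its effects between the lines was 0.32 (adjusted p = 0.787). In dnEGFR mice it was 1.41, 0.933 and 1.08 FPKM in mutants and 1.12, 1.24 and 1.23 FPKM in controls, and 1 mutant lay above all controls and the other 2 below them.

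Gfap, the intermediate filament gene most used to mark astrocytes, was at 28.03, 37.5 and 33.3 FPKM in ErbB2V664E mutants and 53.4, 36.2 and 60.0 FPKM in their controls. The groups touched, because the highest mutant exceeded the lowest control, and the mean was 0.661 times the control mean, 33.0 ± 4.76 against 49.9 ± 12.3 FPKM (SD, n = 3). The log2 difference was -0.56 (SE 0.19, adjusted p = 0.258), not a call, with a 95% interval from -0.99 to -0.14. Gfap in dnEGFR mutants was 29.5, 32.1 and 26.9 FPKM, and in dnEGFR controls 28.7, 25.0 and 34.05 FPKM. These 6 libraries overlapped fully, with a difference of 0.02 and an interval from -0.41 to 0.45.

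Vim, which encodes the filament protein vimentin that co-assembles with GFAP and is also made by endothelial and ependymal cells, was at 3.86, 4.13 and 3.98 FPKM in ErbB2V664E mutants and 5.83, 3.96 and 6.58 FPKM in controls. Controls 1 and 3 lay above all mutants and control 2 lay among them, with a log2 difference of -0.35 (adjusted p = 0.440). dnEGFR mutants had 5.02, 5.00 and 4.51 FPKM of Vim and dnEGFR controls 3.47, 3.65 and 5.37 FPKM, which overlapped, with a difference of 0.20 (adjusted p = 0.987). The ratio of Vim to Gfap, given as a description and not tested, was 0.109, 0.109 and 0.110 in the 3 ErbB2V664E controls and 0.138, 0.110 and 0.119 in the mutants. In the dnEGFR line it was 0.121, 0.146 and 0.158 in controls and 0.170, 0.156 and 0.168 in mutants.

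Because Serpina3n and Gfap diverged, their ratio was taken within each library, a choice made after the values were seen and given as a description. It was 0.210, 0.255 and 0.268 in the ErbB2V664E mutants. In the other 9 libraries it lay between 0.0382 and 0.0889, below all 3 of these mutants. Against the astrocyte enzyme gene Aldh1l1, Gfap stood at 6.25, 3.72 and 5.83 in ErbB2V664E controls and at 3.25, 5.36 and 3.13 in mutants, which overlapped.

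**Figure D1:**
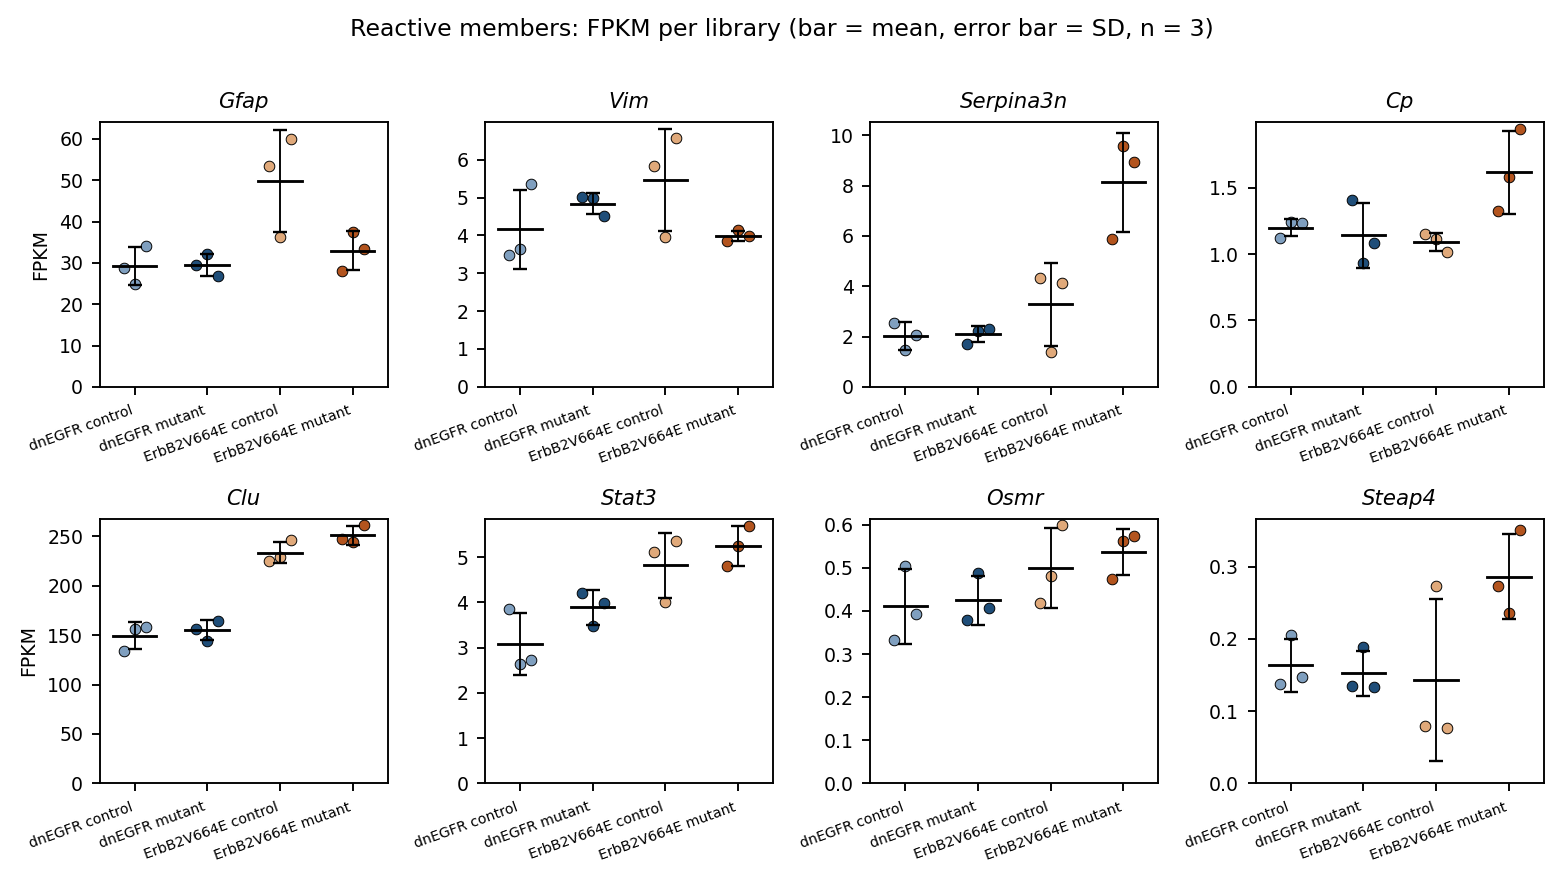
FPKM of 8 reactive members (y axis, linear from 0) in the 4 groups (x axis), with 1 point per library, the mean as a horizontal bar and the SD over 3 libraries as an error bar. Serpina3n lies at 5.89 to 9.56 in ErbB2V664E mutants, above the other 9 libraries, while Gfap is highest in ErbB2V664E controls and Clu and Stat3 are higher in ErbB2V664E controls than in dnEGFR controls.

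Other tested reactive members had small differences between mutants and controls. Clu encodes clusterin, an abundant secreted chaperone, and was at 247, 244 and 261 FPKM in ErbB2V664E mutants and 225, 229 and 246 FPKM in controls. It was at 156, 144 and 165 FPKM in dnEGFR mutants and 134, 156 and 159 FPKM in dnEGFR controls. Mutants and controls overlapped within each line, and the 95% interval of the log2 difference was -0.10 to 0.31 in the ErbB2V664E line and -0.15 to 0.26 in the dnEGFR line. Stat3 was at 4.80, 5.24 and 5.68 FPKM in ErbB2V664E mutants and 5.11, 4.00 and 5.35 FPKM in controls. It was at 4.22, 3.47 and 3.98 FPKM in dnEGFR mutants and 3.86, 2.64 and 2.73 FPKM in dnEGFR controls, with mutants overlapping only the highest control (difference 0.27, adjusted p = 0.918). S1pr3, a receptor for sphingosine 1-phosphate, ranged from 1.04 to 1.82 FPKM over all 12 libraries.

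The other 5 reactive members stayed under 1 FPKM in every library and were not tested. Lcn2 encodes lipocalin 2, an iron-siderophore carrier strongly induced in reactive astrocytes. It was listed at 0.0411, 0.111 and 0.170 FPKM in ErbB2V664E mutants, 0, 0.0596 and 0.0377 FPKM in their controls, 0.115, 0 and 0 FPKM in dnEGFR mutants and 0, 0.0359 and 0 FPKM in dnEGFR controls. With its longest transcript the highest of these values stands for about 5.09 fragments. Tested with no filter on low values, Lcn2 was not called in the ErbB2V664E line (log2 difference 0.10, SE 0.05, adjusted p = 0.611, limma). Steap4, a metalloreductase gene, was at 0.273, 0.236 and 0.351 FPKM in ErbB2V664E mutants and 0.0801, 0.273 and 0.0773 FPKM in their controls, where control 2 reached the mutants. Its dnEGFR values were 0.135, 0.188 and 0.134 FPKM in mutants and 0.138, 0.206 and 0.147 FPKM in controls, an overlapping range. Cd44, a hyaluronan receptor gene, was at 0.288, 0.330 and 0.252 FPKM in ErbB2V664E mutants and 0.168, 0.108 and 0.232 FPKM in their controls, with no overlap, and at 0.417, 0.368 and 0.0516 FPKM in dnEGFR mutants and 0.349, 0.413 and 0.0932 FPKM in dnEGFR controls, where 1 mutant and 1 control stood far under the rest. The metalloprotease inhibitor gene Timp1 was at 0.847, 0.122 and 0.678 FPKM in ErbB2V664E mutants and 0.556, 0.974 and 0.808 FPKM in their controls, at 0.280, 0.354 and 0.413 FPKM in dnEGFR mutants and at 0.480, 0.573 and 0.306 FPKM in dnEGFR controls. Osmr, the oncostatin M receptor that pairs with gp130, was at 0.475, 0.562 and 0.573 FPKM in ErbB2V664E mutants and 0.419, 0.480 and 0.600 FPKM in their controls, at 0.378, 0.489 and 0.407 FPKM in dnEGFR mutants and at 0.333, 0.505 and 0.394 FPKM in dnEGFR controls. Both genes overlapped between mutants and controls in each line. With no filter on low values, Steap4 had the smallest p of these 5 in the ErbB2V664E line (adjusted p = 0.444, limma).

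Among identity members of the ErbB2V664E line, 6 lay lower in all mutants than in all controls and 0 lay higher. They were Slc7a10, Aqp4, S100b, Slc4a4, Cldn10 and Slc6a11. Of all loci tested, 8.96% lay lower in this way and 9.28% higher. In the dnEGFR line 2 of the 22, S100b and Aldh1l1, lay lower without overlap and 0 higher, where 4.57% and 5.58% of all loci did. By unadjusted p under 0.05, 8 of the 29 members tested were reached in the ErbB2V664E line, beside 12.1% of all loci, and 3 of 29 in the dnEGFR line, beside 5.69%.

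Among the genes of glutamate and amino acid handling, Glul, which encodes glutamine synthetase and is also known from oligodendrocytes, had the highest mean of the identity members and ranged from 332 to 499.7 FPKM over the 12 libraries. Its locus is joined with the microRNA gene Mir8114. Slc7a10 encodes Asc-1, a transporter of small neutral amino acids including D-serine. It was at 7.02, 3.88 and 4.00 FPKM in ErbB2V664E mutants and 7.86, 8.25 and 7.86 FPKM in their controls. All mutants lay lower, mutant 1 close to the controls and mutants 2 and 3 at about the same low level. The log2 difference was -0.63 (SE 0.17, adjusted p = 0.179). Without ErbB2V664E mutant 1 it was -0.86 with an adjusted p of 0.00558 (limma), in a fit where 1.9% of all loci were called. That was the one removal of a library that gave a member a call in this line. Slc7a10 in dnEGFR mice was 6.94, 7.51 and 6.75 FPKM in mutants and 6.16, 7.57 and 7.66 FPKM in controls, with a difference of -0.01 and an interval from -0.39 to 0.38. The GABA transporter gene Slc6a11, which lies between 20.6 and 28.4 FPKM in all libraries, had a difference of -0.20 (adjusted p = 0.531) in the ErbB2V664E line.

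The glutamate transporter genes showed no difference beyond the spread between mice. Slc1a2, which encodes GLT-1, was at 38.7, 43.8 and 67.3 FPKM in ErbB2V664E mutants and 229, 65.9 and 60.7 FPKM in controls. Control 1 stood far above the other controls, and without it the log2 difference was -0.38 (adjusted p = 0.885, limma). Slc1a2 was at 34.7, 179.5 and 77.4 FPKM in dnEGFR mutants and 59.6, 45.4 and 35.5 FPKM in dnEGFR controls, where mutant 2 stood alone. The log2 differences of -0.99 (adjusted p = 0.565) and 0.77 (adjusted p = 0.987) had intervals of -2.36 to 0.38 and -0.60 to 2.13. Slc1a3, which encodes GLAST, was at 59.6, 51.5 and 27.1 FPKM in ErbB2V664E mutants and 51.9, 52.6 and 47.7 FPKM in their controls. It was at 52.7, 50.4 and 22.8 FPKM in dnEGFR mutants and 24.6, 56.5 and 52.0 FPKM in dnEGFR controls. In each group but the ErbB2V664E controls, 1 library lay far under the other two, and the differences were -0.21 (adjusted p = 0.887) and -0.08 (adjusted p = 1.00).

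Water, ion and endfoot genes did not share a direction. Aqp4 encodes the water channel of the endfoot membrane that faces blood vessels. It was at 14.3, 12.1 and 13.3 FPKM in ErbB2V664E mutants and 27.0, 20.5 and 28.2 FPKM in their controls. Every mutant lay below every control, with mutants close together and a mean of 0.523 times the control mean, 13.2 ± 1.10 against 25.2 ± 4.13 FPKM (SD, n = 3). The difference of -0.87 on the log2 scale (SE 0.25, adjusted p = 0.195) had a 95% interval from -1.43 to -0.32. Aqp4 in dnEGFR mice was 20.3, 10.5 and 21.6 FPKM in mutants and 17.6, 22.7 and 26.8 FPKM in controls, where only mutant 2 lay under all controls (difference -0.38, adjusted p = 0.966).

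Slc4a4, a sodium bicarbonate cotransporter gene of pH control, was at 7.25, 6.38 and 9.44 FPKM in ErbB2V664E mutants and 13.5, 9.55 and 13.0 FPKM in controls. The highest mutant came just under the lowest control (difference -0.59, SE 0.18, adjusted p = 0.212). Its dnEGFR difference was -0.10, with an interval from -0.50 to 0.30. Mlc1 and Hepacam encode partner proteins of astrocyte junctions at the endfeet. Mlc1 was at 33.1, 24.8 and 27.1 FPKM in ErbB2V664E mutants, 33.3, 19.0 and 25.1 FPKM in their controls, 38.3, 34.98 and 39.9 FPKM in dnEGFR mutants and 32.6, 17.6 and 40.3 FPKM in dnEGFR controls. Hepacam was at 20.5, 20.6 and 22.3 FPKM in ErbB2V664E mutants, 19.9, 17.9 and 21.8 FPKM in their controls, 5.72, 4.10 and 15.2 FPKM in dnEGFR mutants and 7.26, 15.3 and 14.5 FPKM in dnEGFR controls. Both overlapped between mutants and controls in each line, with adjusted p of 0.874 and 0.964 in the ErbB2V664E line and 0.987 and 0.953 in the dnEGFR line. Atp1b2, the beta subunit of the astrocyte sodium pump, had the smallest p of the 29 members tested in the dnEGFR line. It was at 16.2, 16.0 and 14.8 FPKM in dnEGFR mutants and 43.6, 44.5 and 15.5 FPKM in their controls, where control 3 lay among the mutants and the other 2 stood far above (difference -0.96, SE 0.37, adjusted p = 0.812). In the ErbB2V664E line it was at 28.6, 24.5 and 18.4 FPKM in mutants and 24.0, 39.7 and 23.1 FPKM in controls, which overlapped.

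**Figure D2:**
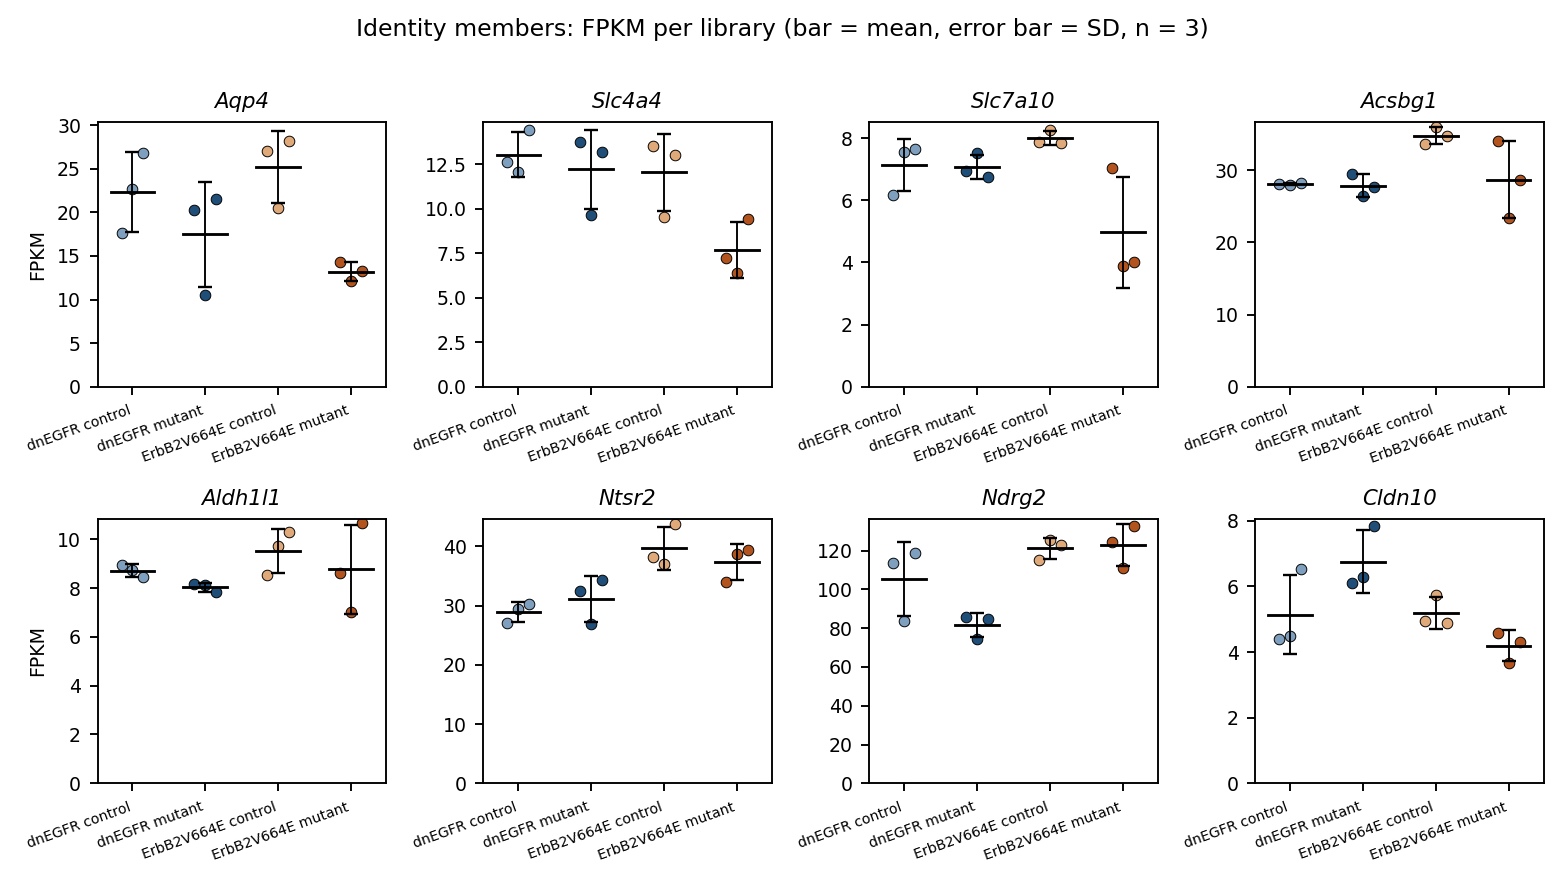
FPKM of 8 identity members (y axis, linear from 0) in the 4 groups (x axis), with 1 point per library, the mean as a horizontal bar and the SD over 3 libraries as an error bar. Aqp4 at 12.1 to 14.3 and Slc4a4 at 6.38 to 9.44 in ErbB2V664E mutants lie below their controls, Aldh1l1 does not separate the ErbB2V664E groups, and Ntsr2 is higher in ErbB2V664E controls than in dnEGFR controls.

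Among metabolic members is Aldh1l1, which encodes a folate enzyme widely used to mark astrocytes and whose locus is joined with the predicted gene Gm45901. It was at 8.63, 7.00 and 10.7 FPKM in ErbB2V664E mutants and 8.54, 9.74 and 10.3 FPKM in controls, which overlapped, with a difference of -0.12 and an interval from -0.40 to 0.16. Values in dnEGFR mice were 8.15, 8.12 and 7.82 FPKM in mutants and 8.95, 8.75 and 8.43 FPKM in controls, close but without overlap (difference -0.10, adjusted p = 0.998). Acsbg1, an acyl-CoA synthetase gene, was at 34.04, 23.4 and 28.6 FPKM in ErbB2V664E mutants and 33.6, 36.0 and 34.7 FPKM in controls, with mutant 1 inside the control range (difference -0.29, adjusted p = 0.375). In dnEGFR mice it was at 29.5, 26.4 and 27.6 FPKM in mutants and 28.1, 27.9 and 28.2 FPKM in controls, which overlapped. Ndrg2, a stress-response gene enriched in astrocytes, was at 85.8, 74.4 and 84.8 FPKM in dnEGFR mutants and 114, 83.6 and 119 FPKM in dnEGFR controls, of which control 2 lay among the mutants (difference -0.35, SE 0.14, adjusted p = 0.819). It was at 124, 111 and 133 FPKM in ErbB2V664E mutants and 115, 126 and 123 FPKM in their controls, with a difference of 0.02. Aldoc, the brain form of aldolase, ranged from 36.2 to 59.9 FPKM at a locus joined with Pigs and Unc119.

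Cldn10, a claudin gene, had the smallest p of the members in the test of whether the effects in the 2 lines differ. It was at 4.59, 3.66 and 4.32 FPKM in ErbB2V664E mutants and 4.96, 5.75 and 4.88 FPKM in their controls, all mutants lower, and at 6.11, 6.28 and 7.85 FPKM in dnEGFR mutants and 4.41, 4.49 and 6.53 FPKM in their controls, where only control 3 reached the mutants. The ErbB2V664E effect minus the dnEGFR effect was -0.60 (SE 0.21, adjusted p = 0.443), not a call. F3, which encodes tissue factor and starts the clotting cascade, was at 9.47, 11.6 and 11.8 FPKM in ErbB2V664E mutants and 7.96, 9.27 and 10.0 FPKM in controls, with mutant 1 among the controls (difference 0.25, adjusted p = 0.432). In the dnEGFR line it was at 11.5, 9.66 and 9.40 FPKM in mutants and 10.5, 11.1 and 10.5 FPKM in controls, with mutant 1 above all controls and the other two below them. The growth factor receptor gene Fgfr3 ranged from 6.14 to 13.7 FPKM, the proteoglycan gene Gpc5 from 4.83 to 6.38 and the transcription factor gene Sox9 from 2.80 to 6.43, and in neither line did these 3 separate mutants from controls.

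S100b encodes a calcium-binding protein of astrocytes that mature oligodendrocytes also make. It had the widest non-overlapping difference of the members, at 5.74, 5.31 and 10.6 FPKM in ErbB2V664E mutants and 13.0, 39.3 and 50.2 FPKM in their controls. Control 1 lay just above the highest mutant and far under the other controls. Its log2 difference of -1.96 (SE 0.59, adjusted p = 0.212) was not called. The mutant mean was 0.211 times the control mean, 7.20 ± 2.92 against 34.1 ± 19.1 FPKM (SD, n = 3). Among dnEGFR mice it was at 59.6, 13.5 and 56.9 FPKM in mutants and 65.5, 68.2 and 67.9 FPKM in controls, where mutant 2 alone was far lower (difference -0.88, adjusted p = 0.969). Beside it, 10 of 10 oligodendrocyte markers tested had negative differences in the ErbB2V664E line, with a median of -0.77, and their summed level was 716 to 1169 FPKM in mutants against 1191 to 1928 in controls. In the dnEGFR line that sum was 1103 to 1304 in mutants and 1066 to 1259 in controls. None of the oligodendrocyte markers was at 0 in any library, and their part in the S100b values was not tested.

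Markers of other cells that the dissected piece could hold were summed for the ErbB2V664E line. Summed levels in mutants against controls were 64.1 to 108 and 104 to 138 FPKM for 11 microglial markers, 22.1 to 118 and 95.5 to 214 for 5 red blood cell markers, and 24.5 to 29.99 and 28.3 to 37.4 for 10 ependymal markers. For 10 endothelial markers they were 59.1 to 64.2 and 46.0 to 54.9, with Cldn5 at 0 in some libraries. Choroid plexus markers ran from 12.6 to 649 FPKM in the mutants and from 249.2 to 577 in the controls, and from 20.2 to 718 in the 6 dnEGFR libraries, with Kcne2 at 0 in some libraries. Sums for 10 mural and fibroblast, 6 oligodendrocyte precursor and 10 neuronal markers were 19.8 to 53.2, 21.6 to 22.5 and 703 to 717 FPKM in mutants and 46.1 to 49.2, 24.5 to 27.7 and 634 to 720 in controls. Of the marker lists of other cells, oligodendrocytes included, 2 genes were called in the ErbB2V664E line, where 0.275% of all loci were. They were 1 of 10 oligodendrocyte and 1 of 10 endothelial markers tested, and the other lists held no call. Mag, a myelin-associated glycoprotein gene of oligodendrocytes, fell from 106, 86.4 and 115 FPKM in controls to 59.6, 34.03 and 39.9 FPKM in mutants (log2 difference -1.22, adjusted p = 0.0449, limma). Vwf, the von Willebrand factor gene of endothelial cells, rose from 0.862, 0.963 and 1.07 FPKM in controls to 1.87, 3.16 and 3.71 FPKM in mutants (0.97, adjusted p = 0.0449), and it passed the filter only through the mutants where it is high. Aqp4, Vim, Clu and Cp are also known from ependymal, choroid plexus or vascular cells, and the part of these cells in the members' values was not tested.

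The members' differences in the 2 lines were also set against each other directly. The difference of the 2 effects passed for 0 of 29 members, where 0.116% of all loci passed, and 5 members had an unadjusted p under 0.05, beside 9.01% of loci. After Cldn10 these were Serpina3n (1.12, SE 0.42, adjusted p = 0.493), Slc7a10 (-0.62, SE 0.24, adjusted p = 0.504), Vim (-0.55, SE 0.24, adjusted p = 0.546) and Cp (0.36, SE 0.16, adjusted p = 0.553), all by limma. Without ErbB2V664E mutant 1, when 0.304% of all loci were called, the value for Slc7a10 was -0.86 with an adjusted p of 0.0492, a call. For Gfap it was -0.58 (adjusted p = 0.562) and for Aqp4 -0.49 (adjusted p = 0.713), so no member was shown to respond differently in the 2 lines.

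**Figure D3:**
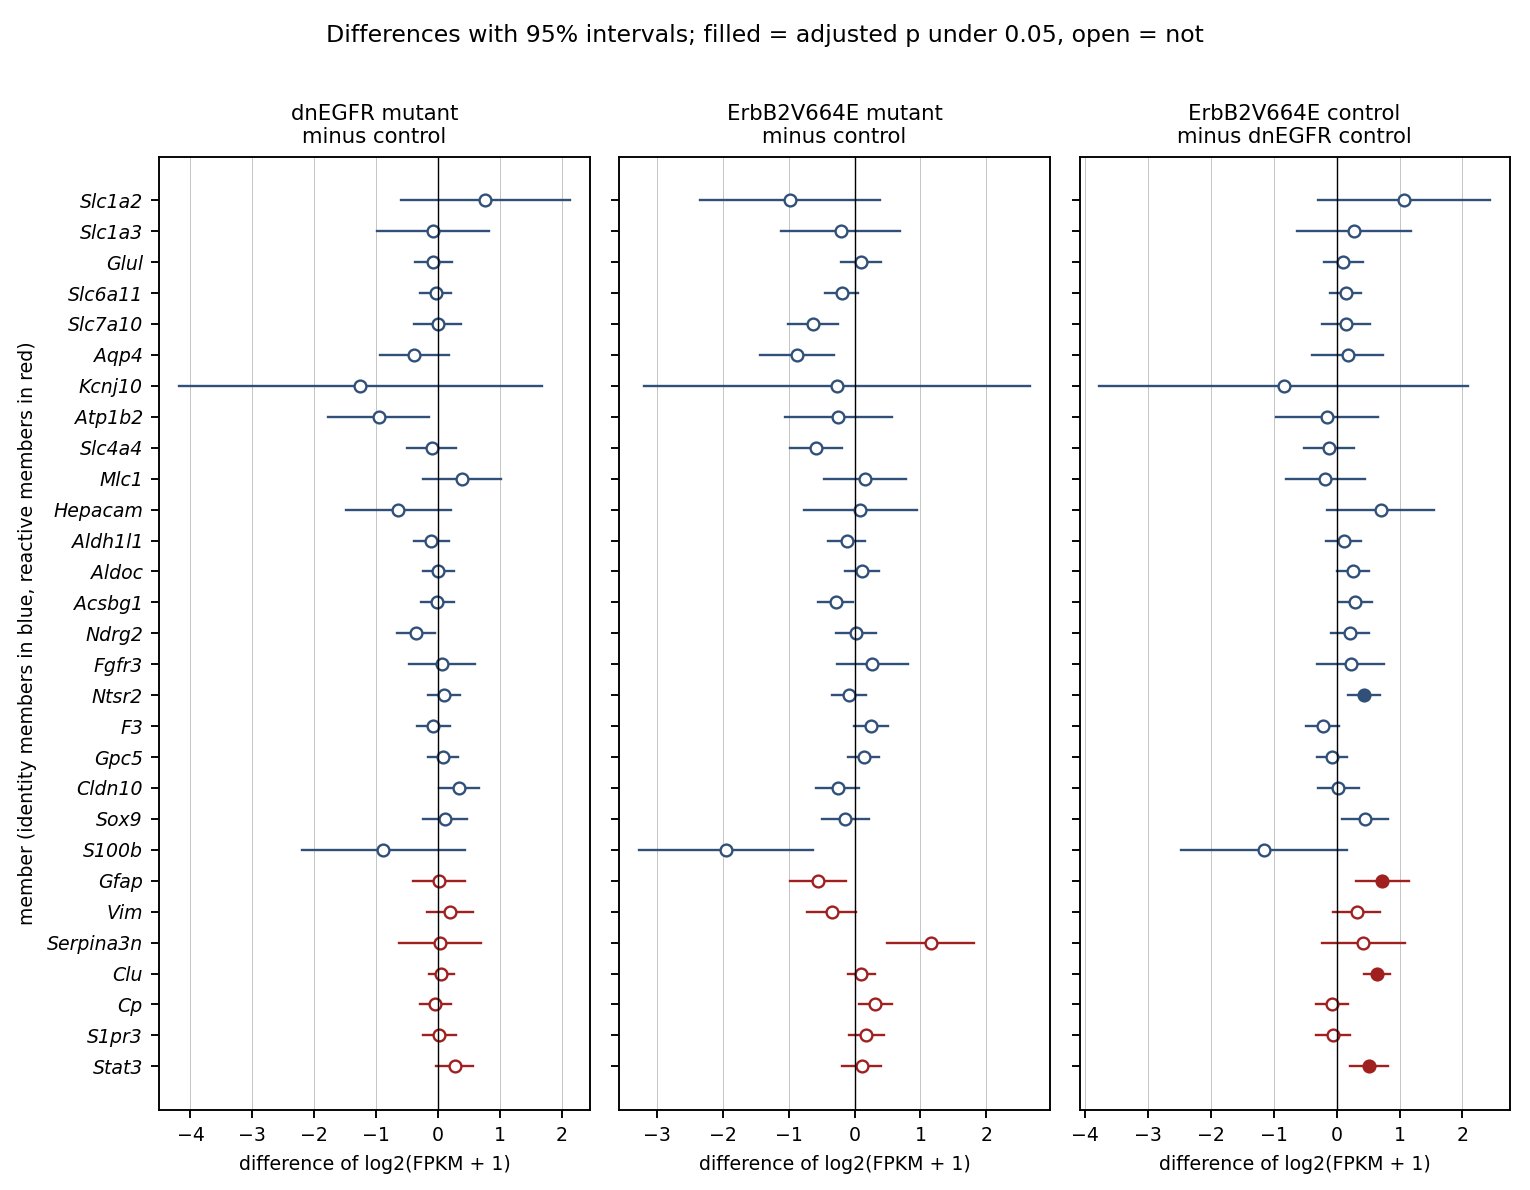
Log2(FPKM + 1) differences (x axis) of the 29 members tested (y axis, identity members in blue and reactive members in red), with 95% intervals from limma and filled points for an adjusted p under 0.05. All points are open in the dnEGFR and ErbB2V664E panels, and 4 are filled, all to the right of 0, between the controls.

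More loci were called between the control groups than between mutants and controls, 20% of those tested. The controls differ in line, age and length of doxycycline, which cannot be told apart, and they enter the mutant comparisons too, so the same control libraries stand in both. Between them 4 of 29 members were called, all higher in ErbB2V664E controls, where 10.9% of all loci were called higher and 9.12% lower. Clu was 0.64 higher on the log2 scale (SE 0.09, adjusted p = 0.00130, limma), with controls at 225 to 246 FPKM in the ErbB2V664E line and 134 to 159 in the dnEGFR line. Stat3 differed by 0.52 (SE 0.14, adjusted p = 0.0234) and Gfap by 0.73 (SE 0.19, adjusted p = 0.0241). Ntsr2, a low-affinity neurotensin receptor gene and the one identity member among the calls, was at 38.2, 37.0 and 43.8 FPKM in ErbB2V664E controls and 27.1, 29.5 and 30.2 FPKM in dnEGFR controls (difference 0.44, SE 0.12, adjusted p = 0.0238). In the mutants Ntsr2 was at 33.9, 38.8 and 39.4 FPKM in the ErbB2V664E line and 32.4, 26.8 and 34.3 FPKM in the dnEGFR line, overlapping the controls of each. For each of these 4 genes all ErbB2V664E controls lay above all dnEGFR controls, as 21.6% of all loci did.

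Clu kept its call with each control library left out, at adjusted p of 0.00413 to 0.00733. The other 3 did not. Gfap reached an adjusted p of 0.0863 and lost its call without dnEGFR control 1 or 2 or ErbB2V664E control 1 or 3, and it also missed the threshold with no filter on low values (adjusted p = 0.0530, limma). Stat3 reached 0.0828 and lost its call without dnEGFR control 2 or 3 or ErbB2V664E control 1 or 3. Ntsr2 reached 0.0853 and lost its call without dnEGFR control 1 or 2 or ErbB2V664E control 3. Without ErbB2V664E control 2, the library with the lowest Gfap of its group, 5 of 29 members were called, Serpina3n among them. In that fit 15.6% of all loci tested were called.

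**Figure D4:**
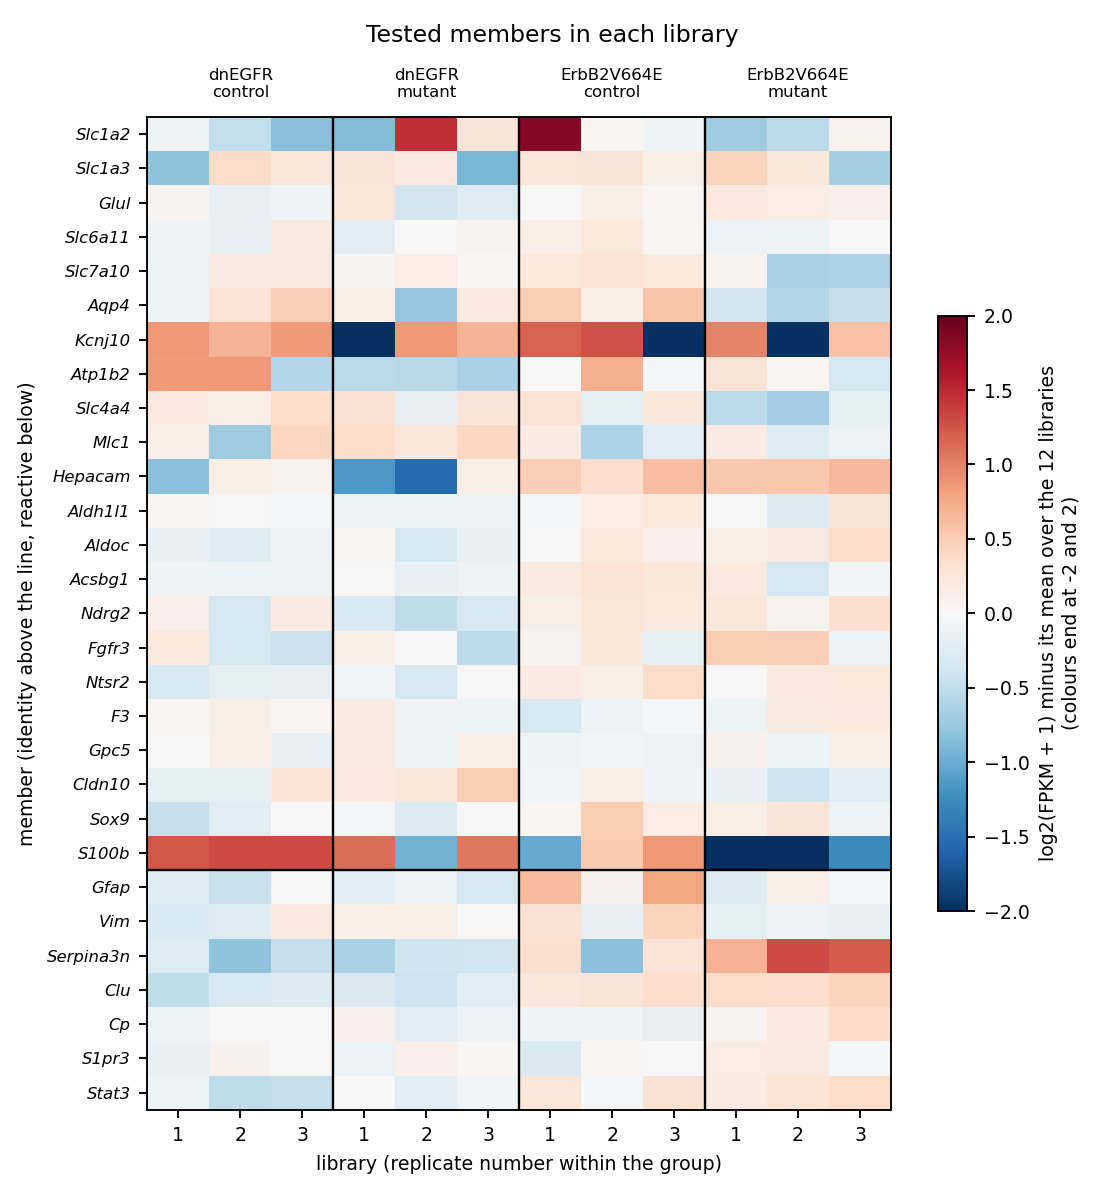
Log2(FPKM + 1) of each tested member (y axis) in each library (x axis, replicate number within its group) minus its mean over the 12 libraries, in colours that end at -2 and 2. Clu is above its mean in the 6 libraries of the ErbB2V664E line and below it in the 6 of the dnEGFR line, Serpina3n is highest in the 3 ErbB2V664E mutants, and Kcnj10, Slc1a2 and S100b differ between single libraries of a group.

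Some members varied strongly between mice of one group. Of the 20 members that reached 10 FPKM in a group, 4 varied over 3-fold inside such a group, or 20%, and 715 of 3774 loci did, or 18.9%. They were Slc1a2, Kcnj10, Hepacam and S100b. Kcnj10, which encodes the potassium channel Kir4.1 and is also made by oligodendrocytes, falls outside the rule for printing library values and was chosen after its values were seen. It was at 50.8, 3.57 and 38.0 FPKM in ErbB2V664E mutants, 57.5, 62.0 and 3.35 FPKM in ErbB2V664E controls, 2.48, 46.2 and 40.6 FPKM in dnEGFR mutants and 46.6, 40.7 and 45.7 FPKM in dnEGFR controls. A single library stood at 2.48 to 3.57 FPKM in each of 3 groups, beside 38.0 to 62.0 in the other libraries of those groups, and the 95% interval of its log2 difference ran from -3.20 to 2.67 in the ErbB2V664E line. The low Kcnj10 libraries were ErbB2V664E mutant 2, ErbB2V664E control 3 and dnEGFR mutant 1. Slc1a2 stood apart in other libraries and was high there, in ErbB2V664E control 1 and dnEGFR mutant 2. In the same libraries S100b was the lowest of its group, at 13.0 FPKM in ErbB2V664E control 1 and 13.5 FPKM in dnEGFR mutant 2. Hepacam was at 5.72 and 4.10 FPKM in dnEGFR mutants 1 and 2, beside 15.2 FPKM in mutant 3. Whether these patterns are linked was not tested.

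**Figure D5:**
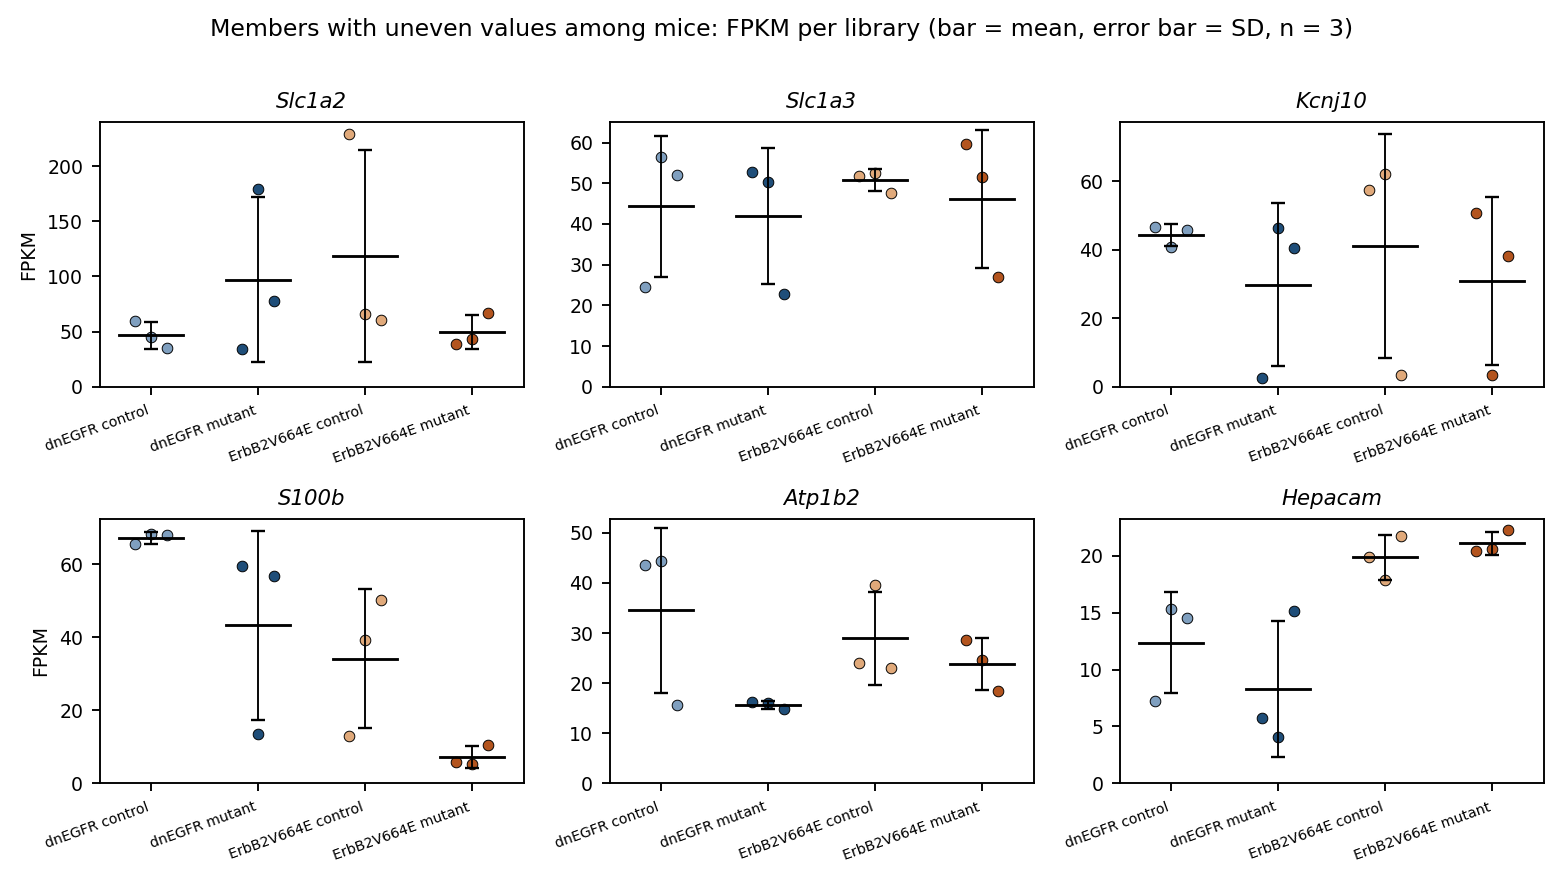
FPKM of 6 identity members (y axis, linear from 0) in the 4 groups (x axis), with 1 point per library, the mean as a horizontal bar and the SD over 3 libraries as an error bar. Single libraries stand apart: Slc1a2 reaches 229 FPKM in 1 ErbB2V664E control, and Kcnj10 stands at 2.48 to 3.57 FPKM in 1 library of each of 3 groups.

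Further genes of the same pathways were counted from lists. Of all loci tested, 0.275% were called in the ErbB2V664E line and 0.0942% in the dnEGFR line. At such shares 0 calls in lists of this size is no result about their genes. Of 41 further astrocyte genes 40 were tested, and 0 were called in either line. The smallest adjusted p was 0.0676 for the glycine transporter gene Slc6a9 in the ErbB2V664E line, at 6.18, 4.29 and 4.32 FPKM in mutants and 9.89, 9.33 and 9.33 in controls, and 0.865 for Gpr37l1 in the dnEGFR line. The 40 had a median log2 difference of 0.06 in the ErbB2V664E line, against -0.17 for the 22 identity members. Of 18 further reactive genes 10 were tested with 0 calls, and the smallest adjusted p was 0.0545 for Ptn, which encodes the growth factor pleiotrophin, at 58.2, 48.8 and 47.4 FPKM in ErbB2V664E mutants and 78.3, 73.5 and 85.7 in controls.

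The reactive states named A1, described after inflammation, and A2, described after ischaemia, had 7 of 12 and 4 of 12 genes tested and 0 calls in either line. Here too 0.275% of all loci were called in the ErbB2V664E line and 0.0942% in the dnEGFR line. The smallest adjusted p of the A1 list was 0.318 (limma) for the guanylate-binding protein gene Gbp2, which was lower in ErbB2V664E mutants (log2 difference -0.37). Of the 7 A1 genes tested, 5 had positive differences in that line and 2 negative ones, with a median of 0.27. In the gp130 and STAT3 pathway 10 of 16 genes were tested and 0 were called in either line. In the ErbB2V664E line 6 of the 10 had negative differences and 4 positive ones, with a median of -0.06. First by p there was the feedback inhibitor gene Socs3, which had a positive difference (log2 difference 0.31, adjusted p = 0.290, limma). Socs3 reached 1 FPKM in the 3 ErbB2V664E mutants alone, at 1.03 to 1.52 FPKM, and so passed the filter only through the group where it is high. Between the controls 1 of these 10 genes was called, or 10%, beside 20% of all loci tested. Cntfr, the receptor for ciliary neurotrophic factor, was 1.09 higher on the log2 scale in ErbB2V664E controls (SE 0.17, adjusted p = 0.00236).

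Of these astrocyte lists, the endfoot scaffold held the one call in a mutant comparison, 1 of 10 genes, where 0.275% of all loci were called in the ErbB2V664E line. Of its 12 genes, which encode the dystroglycan complex, connexins and laminins, 10 were tested, and Lamc1, the laminin gamma 1 chain of the basement membrane that endfeet rest on, fell in ErbB2V664E mutants. It was at 5.28, 4.16 and 4.42 FPKM in the mutants and 10.4, 8.09 and 10.2 in their controls, with no overlap. The log2 difference was -0.91 (SE 0.11, adjusted p = 0.0109, limma). In the dnEGFR line it was at 6.35, 6.03 and 6.10 FPKM in mutants and 6.48, 5.72 and 6.63 in controls, which overlapped. Vascular cells make Lamc1 as well, and the difference of the 2 effects was -0.89 with an adjusted p of 0.126.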

How the data were processed

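Per the labels' protocols, poly(A) RNA of 12 white matter pieces was fragmented, copied with random hexamers and read from both ends. No strand-keeping step is named, so reads of a gene and an overlapping antisense gene cannot be told apart. The deposited values are FPKM, which the authors obtained from StringTie (series design text). HISAT and StringTie appear, without versions, in the submitters' processing notes. The sources used here give no genome build, annotation or options. GENCODE M21 held 99.5% of the table's 91226 transcript identifiers and gave transcript lengths for the fragment estimates. Loci that join neighbouring genes carry the sum of both.

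The test, in limma 3.58.1 (R 4.3.3), took log2(FPKM + 1) of all 12 libraries, with a mean for each group, moderated variances that follow a trend with level, two-sided p-values, and 8 residual and 2.03 prior degrees of freedom. This scale understates changes of genes with low values. The 13803 loci with at least 1 FPKM in at least 3 of the 12 libraries were tested, and the Benjamini-Hochberg adjustment ran over all of them, with a threshold of 0.05. The code was tested on simulated data. Other steps used matplotlib 3.10.9, numpy 2.4.6 and pandas 2.3.3 under Python 3.11.15.

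The label of each control names the numbered mutant whose littermate it is, which pairs the libraries in 6 litters. Deviations from the group means correlated at 0.02, 0.01, 0.03, 0.00, 0.01 and -0.03 within litters. P-values reflect the spread between mice.

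The members and all gene lists were chosen with earlier results of these data known. Library values are printed for members called in a comparison, for the 10 with the smallest p in either line, for 8 members listed in any case (Gfap, Vim, Serpina3n, Lcn2, Slc1a2, Slc1a3, Aqp4, Aldh1l1) and for members not tested, and the rest are given by range. Other list genes are named only if called or if first by p in their list. Alternatives were another pseudocount, no or a stricter filter, a litter block, quantile normalization, only the groups compared, sums over loci, and each library left out.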

Additional observations from a re-analysis of the deposited data

How the results depend on the processing

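With the litter as a replicate block, which follows the pairing, 3 loci were called in the dnEGFR line, 7 in the ErbB2V664E line and 4 for the difference of effects, instead of 13, 38 and 16, and 0 members in each. Only the groups compared gave 22 and 23 called loci in the dnEGFR and ErbB2V664E lines. A filter of 5 FPKM in 3 libraries gave 7 for the ErbB2V664E line, 7 for the difference of effects and 1766 instead of 2761 between controls. It left 6202 loci to test. The shares called were then 0.113% for the ErbB2V664E line instead of 0.275%, and 28.5% between controls instead of 20%. Leaving out 1 library in turn gave 17 to 36 called loci in the dnEGFR line, 16 to 262 in the ErbB2V664E line (262 without ErbB2V664E mutant 1), 15 to 42 for the difference and 1810 to 2152 between controls. Called members then numbered 0 to 1 in the ErbB2V664E line and for the difference, where the 1 was Slc7a10, and 1 to 5 between controls. Signs turned for Gfap, Serpina3n and Slc1a3 in the dnEGFR line and for Aldh1l1 and Slc1a3 in the ErbB2V664E line. Gfap in the dnEGFR line was -0.019 under quantile normalization and -0.085 to 0.13 with 1 library left out. With 1 library left out, Serpina3n was -0.11 to 0.16 and Slc1a3 -0.45 to 0.30 there. In the ErbB2V664E line Aldh1l1 was then -0.26 to 0.013 and Slc1a3 -0.43 to 0.13. The sign of Slc1a3 thus depended on which library was left out. With only the controls fitted, Gfap and Stat3 missed the threshold between them (adjusted p = 0.0728 and 0.0742, limma) and Acsbg1 gained a call, and the cause was not tested. Differences were followed across the alternatives for the members called, first by p or listed in any case in each comparison. Of these, 433 values kept their direction and side of the threshold, 14 lost a call, 2 gained one, both for Slc7a10, and 10 changed sign. Acsbg1 and, without ErbB2V664E control 2, Serpina3n were called between controls in addition to these. The calls of list genes, Mag, Vwf and Lamc1 among them, were not followed across the alternatives. By their longest transcripts, the members under 1 FPKM rest on unlike numbers of estimated fragments per library. These were 0 to 5.09 for Lcn2, 2.26 to 16.5 for Timp1 and 4.93 to 24.1 for Steap4. They were 6.17 to 46.5 for Cd44 and 33.6 to 68.6 for Osmr.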

Other observations

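Between the controls, 8 of the 40 further astrocyte genes tested were called, 5 higher in the ErbB2V664E line (Lcat, Rfx4, Mt3, Slc6a9 and Ttyh1) and 3 lower (Slc39a12, Pla2g7 and Sox2). Sox2 was listed at 0 in all 3 ErbB2V664E controls and in mutants 1 and 2, and it reached 1 FPKM only in the dnEGFR line, through which it passed the filter. In the A2 list Tm4sf1 was lower in ErbB2V664E controls, at 0.810, 1.02 and 1.14 FPKM against 1.94, 2.17 and 2.29 in dnEGFR controls (log2 difference -0.66, SE 0.10, adjusted p = 0.00165, limma), with no overlap. It reached 1 FPKM in 2 of the 6 ErbB2V664E-line libraries and passed the filter through the dnEGFR line, where it is high, and it is also on the ependymal list. In the endfoot scaffold Agrn and Lamc1 were called higher in ErbB2V664E controls, by 0.34 and 0.53 on the log2 scale. The controls' line, age and doxycycline length cannot be told apart here either, and 20% of all loci tested were called in this comparison.

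The ratio of the amino acid transporter genes Slc7a10 to Slc6a11, chosen after the values were seen, was 0.313, 0.170 and 0.165 in ErbB2V664E mutants. It was 0.291 to 0.314 in their controls and 0.265 to 0.346 in the 6 libraries of the dnEGFR line, so that ErbB2V664E mutant 1 stood with the controls and mutants 2 and 3 below all other libraries.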
